A study of Homo sapiens with 6 samples.

Results

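The 10 genes described here encode the hypoxia-inducible factors (HIF) and the proteins that sense oxygen and mark them for destruction. They are the alpha subunit genes EPAS1, HIF1A and HIF3A, the beta subunit genes ARNT and ARNT2, the prolyl hydroxylase genes EGLN1, EGLN2 and EGLN3, VHL, and HIF1AN. They were taken by gene symbol from the 58302 genes listed in the deposited tables, and each symbol matched 1 row. The set was chosen by role in this pathway with the FPKM differences between these same libraries already known, so the members' values are a description and carry no p-value. The cells were HCCLM3, an established human hepatocellular carcinoma line. RNA from cells transfected with an antisense oligonucleotide (ASO) against SCARNA13, a small Cajal body RNA, was sequenced in 3 libraries (SCARNA13 ASO). RNA from cells transfected with a control oligonucleotide was sequenced in 3 libraries (Control ASO). The comparison asks which transcripts differ between cells given the SCARNA13 oligonucleotide and cells given the control. No other genetic change or treatment is named, and the sources used here give no oxygen level, dose or time.

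A hypoxia-inducible factor is a pair of an oxygen-labile alpha subunit and a stable beta subunit, both transcription factors of the bHLH-PAS family. In oxygenated cells the prolyl hydroxylases modify the alpha subunit, VHL then recognises it for ubiquitination and the proteasome destroys it, while HIF1AN (factor inhibiting HIF, FIH) blocks its coactivator contact. Low oxygen halts these steps, and the pair binds hypoxia response elements of genes for glycolysis, blood vessel growth and matrix remodelling. Much of this control acts on protein, which was not measured here.

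Values are FPKM, fragments scaled by transcript length and library size, and reads are the whole reads recovered from them. The libraries held between 20457474 and 25173559 reads and between 19362 and 22794 genes above 0. SCARNA13 was at 0.268, 0.383 and 0.468 FPKM in SCARNA13 ASO replicates 1 to 3 and at 0.717, 0.683 and 0.556 FPKM in Control ASO replicates 1 to 3. The groups did not overlap, but between 2 and 6 reads lay behind each value. An exact permutation test (two-sided) gave p = 0.1, the smallest value possible with 3 against 3. SCARNA13 lies within SNHG10 on the same strand. SNHG10 was at 3.67 ± 0.681 FPKM in SCARNA13 ASO and 5.10 ± 1.10 FPKM in Control ASO (SD, n = 3 each). Its groups did not overlap either, with between 133 and 262 reads in each library. Which of these transcripts a difference below goes with was not tested. Replicate 3 stood apart in both groups: its correlation with replicates 1 and 2 over all genes tested was 0.900 to 0.939, against 0.980 between both replicate 3 libraries and 0.988 to 0.994 among the others. No label names separate cultures behind the replicates, so a p-value here reflects only how these libraries differ, and that spread may be technical.

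The line carried epithelial keratins, with KRT18 at 879 to 1904 FPKM in SCARNA13 ASO and 974 to 2725 FPKM in Control ASO, but 3 of 13 hepatic and epithelial markers (ALB, APOB and CDH1) were at 0 in every library. The sum of that list ranged from 2119 to 4149 FPKM in SCARNA13 ASO and from 2182 to 5319 FPKM in Control ASO. Because EPAS1 is also abundant in blood vessel cells, endothelial markers were read beside it. Of 10 endothelial markers KDR and TEK were at 0 in every library and PECAM1 and CDH5 did not exceed 0.03 FPKM, while EGFL7 reached 110 FPKM. Their summed level ranged from 27.4 to 76.8 FPKM in SCARNA13 ASO and from 30.1 to 118.8 FPKM in Control ASO. In fibroblast markers, of which 0 of 7 were at 0 in every library, the sum ranged from 6.24 to 8.61 FPKM in SCARNA13 ASO and from 5.83 to 6.89 FPKM in Control ASO. Of 6 leukocyte markers 2 (LYZ and CD3E) were at 0 in every library, and the sum ranged from 2.39 to 3.57 FPKM in SCARNA13 ASO and from 3.05 to 7.26 FPKM in Control ASO. The ranges of all 4 sums overlapped between the groups. Within each replicate number, however, the hepatic and epithelial, endothelial and leukocyte sums were lower in SCARNA13 ASO and the fibroblast sum was higher. Their part in the results was not tested. Most of each sum came from few genes: KRT8, KRT18 and KRT19, then EGFL7, CD14 and COL3A1. Single genes also went against their sum, with KRT19 and CD68 higher and COL1A1 lower within each replicate number. In bulk RNA, fewer cells of a type and less RNA per cell cannot be told apart.

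Of the 10 genes, 8 had an entry in the RefSeq promoter table (GRCh38.p14), all but ARNT2 and VHL. The 250 bases upstream of 4 starts are printed 5′ to 3′ on the gene's strand: the alpha subunit genes whose levels are compared throughout, and the hydroxylase genes EGLN1, which is known as a HIF target, and EGLN3, which was not detected. Capitals mark the core of the hypoxia response element, searched as ACGTG or GCGTG and, on the other strand, CACGT or CACGC.
EPAS1, chr2:46297157-46297406, plus strand: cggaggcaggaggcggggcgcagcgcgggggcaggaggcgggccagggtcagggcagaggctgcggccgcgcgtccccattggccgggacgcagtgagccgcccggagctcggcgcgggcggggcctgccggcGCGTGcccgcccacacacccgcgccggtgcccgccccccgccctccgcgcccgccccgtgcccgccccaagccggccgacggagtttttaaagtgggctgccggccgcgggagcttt
HIF1A, chr14:61695263-61695512, plus strand: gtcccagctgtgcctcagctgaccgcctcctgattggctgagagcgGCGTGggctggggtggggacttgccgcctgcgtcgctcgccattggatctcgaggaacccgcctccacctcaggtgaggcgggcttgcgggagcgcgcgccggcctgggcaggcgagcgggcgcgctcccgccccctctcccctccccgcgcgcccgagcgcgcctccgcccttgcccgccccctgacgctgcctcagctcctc
EGLN1, chr1:231422288-231422537, minus strand: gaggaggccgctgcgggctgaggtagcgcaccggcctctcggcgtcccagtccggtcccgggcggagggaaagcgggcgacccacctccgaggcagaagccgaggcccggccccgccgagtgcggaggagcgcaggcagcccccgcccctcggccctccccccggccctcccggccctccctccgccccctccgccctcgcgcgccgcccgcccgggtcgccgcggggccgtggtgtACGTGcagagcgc
EGLN3, chr14:33951075-33951324, minus strand: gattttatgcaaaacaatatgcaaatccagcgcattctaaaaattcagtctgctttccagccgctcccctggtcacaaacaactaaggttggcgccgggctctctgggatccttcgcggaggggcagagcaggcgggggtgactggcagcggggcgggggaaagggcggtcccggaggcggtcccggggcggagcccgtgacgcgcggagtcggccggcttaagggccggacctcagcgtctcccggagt

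EPAS1 held 1 match, starting 117 bases before the RefSeq start, HIF1A held 1 match 204 bases before the start shown, and EGLN1 held 1 match (ACGTG) 13 bases before its start. The EGLN3 window held 0 matches. A further RefSeq start of HIF1A has a window (chr14:61697462-61697711) with 0 matches and 31.2% GC, which is not printed. Of all 35116 RefSeq windows of this length 43.2% held at least 1 match, and a match is a string of letters, not a site shown to be bound. The EPAS1 window was 80.8% GC and the printed HIF1A window 75.6% GC, against a median of 58% over all windows. The EPAS1 gene model in the deposited tables begins 3740 bases upstream of this RefSeq start.

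EPAS1 (ENSG00000116016, GRCh38 chr2:46293667-46386703, plus strand) encodes HIF-2 alpha. It stood at 8.67, 8.33 and 7.05 FPKM in SCARNA13 ASO replicates 1 to 3, from 1719, 1734 and 800 reads. In Control ASO replicates 1 to 3 it stood at 3.99, 3.76 and 2.98 FPKM, from 887, 731 and 285 reads. Every SCARNA13 ASO library lay above every Control ASO library, and replicate 3 was the lowest of its group in both. The mean was 8.02 ± 0.857 FPKM in SCARNA13 ASO and 3.58 ± 0.530 FPKM in Control ASO (SD, n = 3 each), a ratio of means of 2.24. Within replicate numbers 1, 2 and 3 the ratio was 2.17, 2.22 and 2.36, so replicate 3, which stood apart, showed a like difference on this scale. With FPKM rescaled to total reads, replicate 3 was at 5.36 in SCARNA13 ASO and 1.89 in Control ASO. On the log2(FPKM + 0.5) scale, used for all differences below, SCARNA13 ASO minus Control ASO was 1.07 ± 0.18 (SE). With the replicate number as a block and a correction for GC content it was 1.11 ± 0.067. EPAS1 ranked 17 of 10120 genes tested by this difference, from the largest positive difference, and its mean level ranked 4059 of all genes listed in SCARNA13 ASO and 6160 in Control ASO.

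HIF1A (ENSG00000100644, chr14:61695513-61748259, plus strand) encodes HIF-1 alpha, the subunit found in nearly all cells. Its level was 8.83, 8.70 and 4.03 FPKM in SCARNA13 ASO and 7.42, 7.70 and 3.99 FPKM in Control ASO, in replicates 1 to 3. The groups overlapped, and replicate 3 was at about the same FPKM level in both. With FPKM rescaled to total reads, replicate 3 was at 3.07 in SCARNA13 ASO and 2.53 in Control ASO, and the groups still overlapped. The means were 7.19 ± 2.73 FPKM in SCARNA13 ASO and 6.37 ± 2.07 FPKM in Control ASO (SD, n = 3 each). The difference was 0.14 ± 0.39 (SE), less than the spread between replicates. Within replicate numbers 1, 2 and 3 it was 0.24, 0.17 and 0.01. With the replicate number as a block the SE was 0.076. Without replicate 3 of either group the difference was 0.20 ± 0.051. HIF1A shares 265 of its 5151 exonic bases with AL137129.1 and with the antisense gene HIF1A-AS1, and the library kit does not mark strand, so reads there cannot be told apart. HIF1A-AS1 and HIF1A-AS2 held at most 2 reads in a SCARNA13 ASO library and at most 5 reads in a Control ASO library.

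HIF3A (ENSG00000124440, chr19:46297046-46343433, plus strand) encodes HIF-3 alpha, some splice forms of which oppose the other alpha subunits. It had 1, 3 and 0 reads in SCARNA13 ASO and 0, 0 and 2 reads in Control ASO. All were at or under 3 reads, the upper limit that a count of 0 allows, which corresponds to 0.0126 to 0.023 FPKM in SCARNA13 ASO and 0.0118 to 0.0274 FPKM in Control ASO. It shares 277 of 8371 exonic bases with AC007193.2. HIF3A was therefore not detectable above this depth in either group, and no fold is given.

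**Figure D1:**
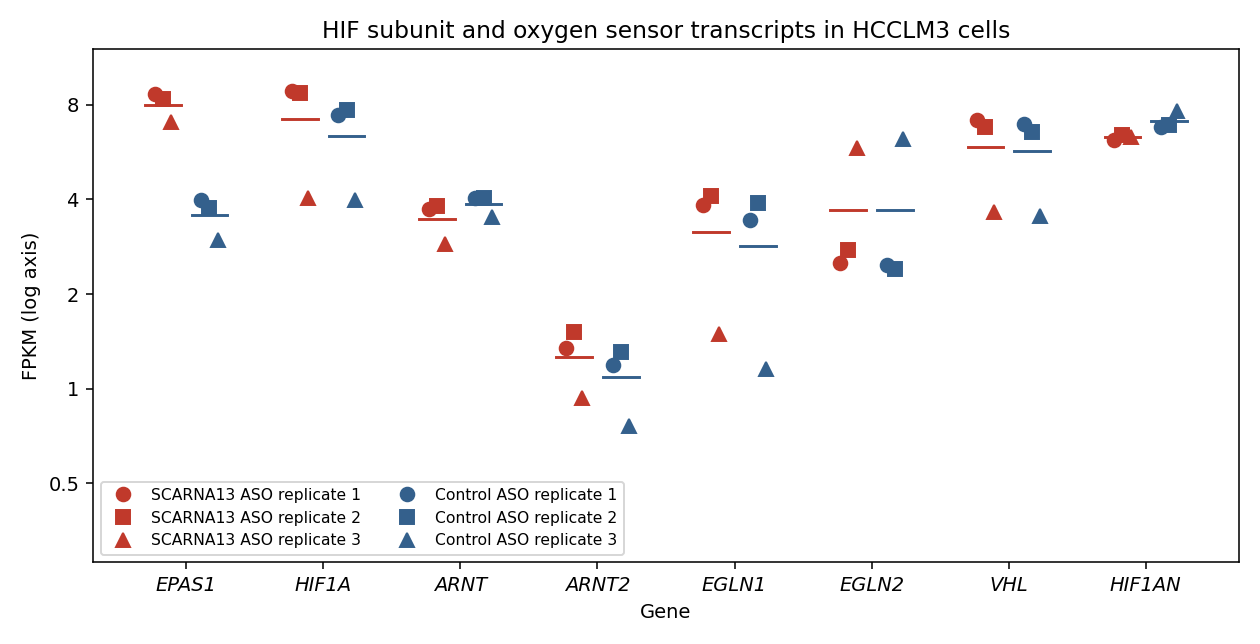
Level of the 8 members with a mean of at least 1 FPKM, in FPKM on a log axis; each point is a library (SCARNA13 ASO red, Control ASO blue) and each line the group mean. The 3 EPAS1 values in SCARNA13 ASO, from 7.05 to 8.67, lie above the Control ASO values, from 2.98 to 3.99, while for HIF1A, ARNT, ARNT2, EGLN1, EGLN2 and VHL the groups overlap.

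EPAS1 was also read against HIF1A within each library, since both encode partners of the same beta subunits. The EPAS1 to HIF1A ratio of FPKM was 0.982, 0.957 and 1.75 in SCARNA13 ASO replicates 1 to 3 and 0.538, 0.488 and 0.747 in Control ASO replicates 1 to 3. The groups did not overlap, and replicate 3 was the highest of its group in both. EPAS1 made up 54.0 ± 8.31% of the sum of both transcripts in SCARNA13 ASO and 36.9 ± 5.24% in Control ASO (SD, n = 3 each). That sum was 17.5, 17.03 and 11.1 FPKM in SCARNA13 ASO and 11.4, 11.5 and 6.97 FPKM in Control ASO, so the third SCARNA13 ASO library lay among the Control ASO libraries. These ratios rest on the same contrast as the choice of genes and were not tested.

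**Figure D2:**
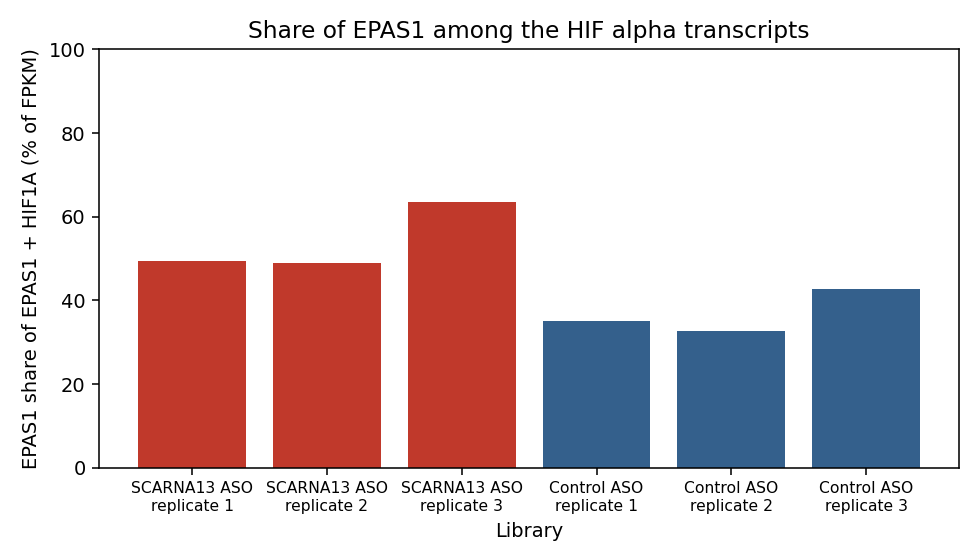
EPAS1 as a percentage of EPAS1 plus HIF1A FPKM in each library (SCARNA13 ASO red, Control ASO blue), without error bars since each bar is a single library. The SCARNA13 ASO bars stand at 49.5, 48.9 and 63.6% and the Control ASO bars at 35.0, 32.8 and 42.8%.

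The beta subunit genes had small differences in opposite directions. ARNT (ENSG00000143437, chr1:150809705-150876768, minus strand), the common partner of the alpha subunits, stood at 3.72, 3.82 and 2.89 FPKM in SCARNA13 ASO and 4.06, 4.05 and 3.51 FPKM in Control ASO. It was lower in SCARNA13 ASO within each replicate number, though the groups overlapped, with a difference of -0.14 ± 0.17 (SE). ARNT2 (ENSG00000172379, chr15:80404350-80597937, plus strand), a partner known mainly from nervous tissue, stood at 1.35, 1.52 and 0.930 FPKM in SCARNA13 ASO and 1.19, 1.31 and 0.760 FPKM in Control ASO. It was higher within each replicate number and the groups overlapped, with a difference of 0.16 ± 0.24 (SE). It shares 215 of 7741 exonic bases with AC108451.1, AC108451.2 and MIR5572. The 2 beta transcripts summed to 4.74 ± 0.809 FPKM in SCARNA13 ASO and 4.96 ± 0.602 FPKM in Control ASO (SD, n = 3 each). The ratio of alpha to beta FPKM took EPAS1 and HIF1A over ARNT and ARNT2. It was 3.45, 3.19 and 2.90 in SCARNA13 ASO and 2.18, 2.14 and 1.63 in Control ASO, with no overlap. Since the ratio holds EPAS1, it rests on the same contrast as the choice of genes and was not tested.

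Among the oxygen sensors, EGLN1 (ENSG00000135766, chr1:231363751-231425044, minus strand) encodes PHD2, the main hydroxylase of HIF-1 alpha in most cells. It stood at 3.84, 4.09 and 1.496 FPKM in SCARNA13 ASO and 3.45, 3.91 and 1.16 FPKM in Control ASO. It was higher in SCARNA13 ASO within each replicate number, by 0.14, 0.06 and 0.27, but the groups overlapped and the difference was 0.15 ± 0.50 (SE). EGLN2 (ENSG00000269858, chr19:40798996-40808433, plus strand), which encodes PHD1, stood at 2.51, 2.75 and 5.85 FPKM in SCARNA13 ASO and 2.47, 2.40 and 6.21 FPKM in Control ASO. Here replicate 3 was the highest library of each group, the groups overlapped, and the difference was 0.03 ± 0.44 (SE). EGLN2 shares 2012 of its 6577 exonic bases with AC008537.1 and the read-through gene RAB4B-EGLN2, so its reads are uncertain. RAB4B-EGLN2 was listed at 0 in every library.

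EGLN1 was lowest and EGLN2 highest in replicate 3 of each group. Their ratio was 1.53, 1.49 and 0.256 in SCARNA13 ASO and 1.40, 1.63 and 0.186 in Control ASO, so it was low in replicate 3 of both groups and the groups overlapped. Their sum was 6.85 ± 0.493 FPKM in SCARNA13 ASO and 6.53 ± 0.752 FPKM in Control ASO (SD, n = 3 each).

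EGLN3 (ENSG00000129521, chr14:33924231-34462774, minus strand) encodes PHD3, whose transcript is known to rise in hypoxia. It had 0 reads in all 6 libraries. A count of 0 allows up to 3 reads, or 0.0143 to 0.0262 FPKM in SCARNA13 ASO and 0.0134 to 0.0311 FPKM in Control ASO, so a difference was not detectable at this depth. None of 73 ribosomal protein genes was at 0 in every library. The gene model in the tables begins 511700 bases upstream of the RefSeq start whose window is printed above.

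VHL (ENSG00000134086, chr3:10141008-10152220, plus strand), the substrate-recognition part of the ubiquitin ligase, stood at 7.13, 6.82 and 3.65 FPKM in SCARNA13 ASO and 6.96, 6.58 and 3.55 FPKM in Control ASO. Libraries of the same number lay close together, the groups overlapped, and the difference was 0.04 ± 0.35 (SE). HIF1AN (ENSG00000166135, chr10:100529072-100559998, plus strand) encodes the asparaginyl hydroxylase FIH. It stood at 6.20, 6.41 and 6.31 FPKM in SCARNA13 ASO, from 2350, 2551 and 1368 reads, and at 6.81, 6.90 and 7.62 FPKM in Control ASO, from 2888, 2562 and 1392 reads. Every SCARNA13 ASO library lay below every Control ASO library. The means were 6.31 ± 0.105 FPKM in SCARNA13 ASO and 7.11 ± 0.448 FPKM in Control ASO (SD, n = 3 each), and the difference was -0.16 ± 0.15 (SE). When FPKM were rescaled to total reads the HIF1AN groups overlapped and the difference shrank to -0.07. HIF1AN shares 325 of 13950 exonic bases with AL133352.1 and NDUFB8.

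Set side by side, EPAS1 was the member whose position changed most in the order of mean levels. In SCARNA13 ASO the order, from high to low, was EPAS1, HIF1A, HIF1AN, VHL, EGLN2, ARNT, EGLN1, ARNT2, HIF3A and EGLN3. In Control ASO it was HIF1AN, HIF1A, VHL, ARNT, EGLN2, EPAS1, EGLN1, ARNT2, HIF3A and EGLN3. Neighbours in either order overlapped in range over the 3 libraries, except ARNT2 and HIF3A, so most places are not separated. EPAS1 was above HIF1A in 1 of 3 SCARNA13 ASO libraries, replicate 3.

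**Figure D3:**
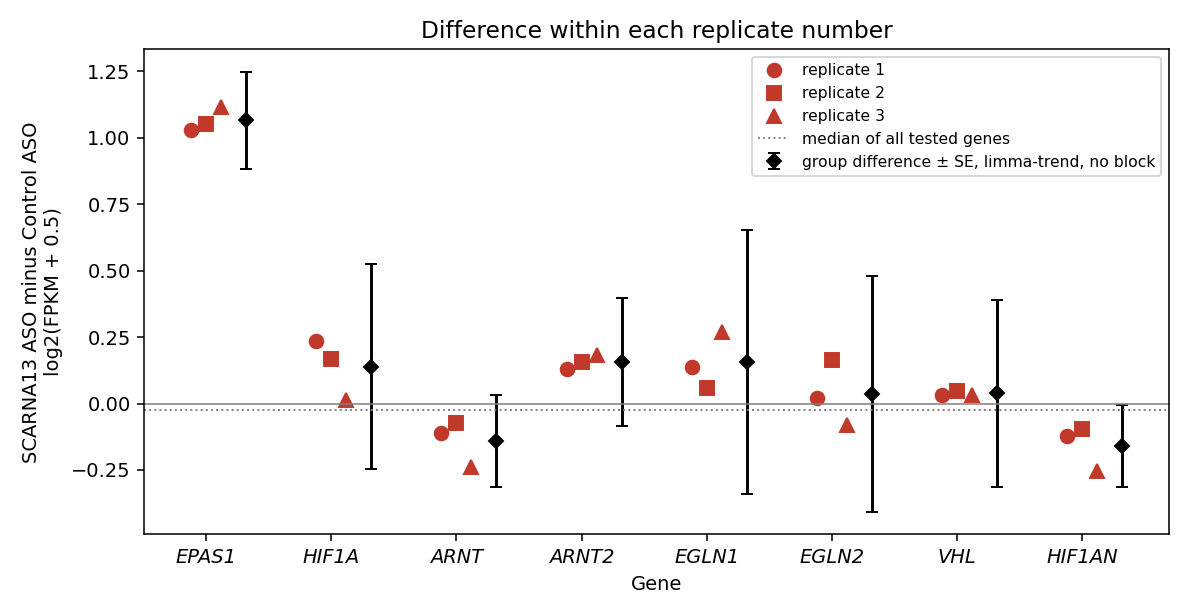
SCARNA13 ASO minus Control ASO on the log2(FPKM + 0.5) scale for the 8 members with a mean of at least 1 FPKM; red points are the 3 replicate numbers, black diamonds the group difference ± SE, and the dotted line the median of all genes tested. EPAS1 lies between 1.03 and 1.12, and the group differences of the other 7 lie between -0.16 and 0.16.

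Of the 10 members, 8 had a mean of at least 1 FPKM and were tested with all other genes by limma-trend. Group differences of the 7 other than EPAS1 lay between -0.16 and 0.16, where the median over the 10120 genes tested was -0.02. Their SEs given above, with group as the only term, include the spread between replicate numbers. With the replicate number as a block the SE was 0.068 for EPAS1, 0.076 for HIF1A, 0.077 for ARNT and 0.101 for ARNT2. It was 0.084 for EGLN1 and EGLN2, 0.065 for VHL and 0.071 for HIF1AN. With group as the only term, 0 of 8 members and 0 of 10120 genes (0%) passed an adjusted p of 0.05, while 1 member and 173 genes had an unadjusted p under 0.05. By limma-voom on recovered reads 0 genes passed as well, with 1 member and 225 genes at an unadjusted p under 0.05. With the replicate number as a block 0 genes passed, and the lowest adjusted p was 0.0506. With the block and the GC correction 1 of 8 members passed, EPAS1, beside 526 of 10104 genes (5.21%), but 0 of 8 passed there when replicate number 1 or 2 was left out of both groups. Without replicate 3 of either group 1 of 8 passed, again EPAS1, beside 922 of 10120 (9.11%, with 4.52% higher and 4.59% lower in SCARNA13 ASO). The groups did not overlap for 1 member higher in SCARNA13 ASO, beside 4% of genes tested, and for 1 lower, HIF1AN, beside 4.44% (8.44% in either direction). In all 3 replicate numbers 5 members were higher, beside 23.9% of genes tested, and 2 were lower, beside 29.6% (53.6% in either direction). Nothing is read from these shares, since the contrast chose the members.

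The deviation of replicate 3 was also set beside base composition. Replicate 3 minus the mean of replicates 1 and 2 was farthest from 0 for EGLN1, at -1.16 in SCARNA13 ASO and -1.33 in Control ASO, at 44.1% GC in its longest transcript. In the decile of tested genes around 44.1% GC the median was -0.43 in SCARNA13 ASO and -0.55 in Control ASO. The deviation was -1.03 for HIF1A in SCARNA13 ASO and -0.84 in Control ASO, at 36.4% GC. It was 1.02 for EGLN2 in SCARNA13 ASO and 1.19 in Control ASO, at 55.8% GC. In the decile of tested genes lowest in GC (median 37.9%) the median of this deviation was -0.83 in SCARNA13 ASO and -0.94 in Control ASO. In the decile highest in GC (median 65.0%) it was 1.21 in SCARNA13 ASO and 1.52 in Control ASO. EPAS1, at 52.6% GC, deviated by -0.25 in SCARNA13 ASO and -0.33 in Control ASO, and HIF1AN, at 46.8% GC, by under 0.01 in SCARNA13 ASO and 0.14 in Control ASO. EGLN1, VHL, ARNT2 and EPAS1 itself were lower in replicate 3 than the medians drawn for genes of like GC. In the decile around 52.5% GC, where EPAS1 and ARNT2 lie, that median was 0.33 in both groups, while ARNT2 deviated by -0.43 in SCARNA13 ASO and -0.47 in Control ASO. What set replicate 3 apart was not tested.

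**Figure D4:**
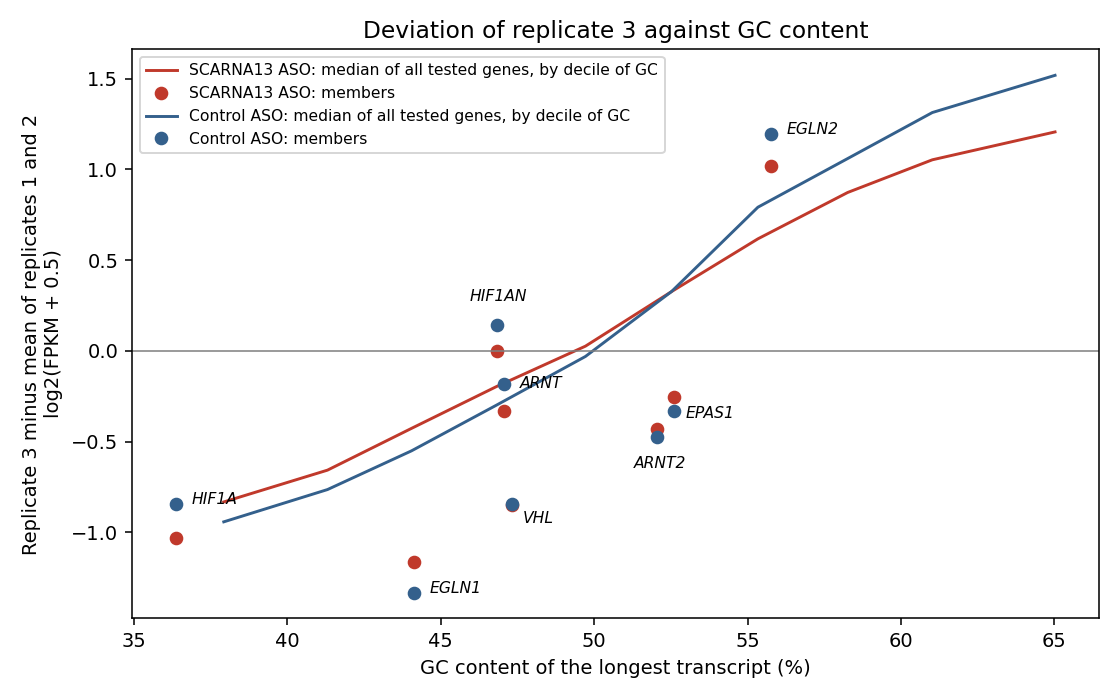
Replicate 3 minus the mean of replicates 1 and 2, in log2(FPKM + 0.5), against the GC content of the longest transcript in percent, for the 8 tested members (points) and as medians over deciles of all tested genes (lines), with SCARNA13 ASO red and Control ASO blue. EGLN1 and HIF1A are among the lowest members and EGLN2 is the highest in both groups, at 1.02 in SCARNA13 ASO and 1.19 in Control ASO.

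Other genes of the pathway were read from 5 lists: HIF-1-preferring targets, HIF-2-preferring targets, targets shared by both, genes of HIF degradation, stability and coactivation, and other bHLH-PAS genes. The last list also holds the PER clock genes, which are not bHLH-PAS factors. Of the genes in the 5 lists, 89 were in the tables and 61 were tested. With group as the only term 0 passed by limma-trend, with 2 at an unadjusted p under 0.05, and 0 passed by limma-voom, with 5. With the block and the GC correction 7 rose, beside 3.06% of all genes tested, and 2 fell, beside 2.15%. The same 9 genes passed without replicate 3 of either group, where 13 passed in all. Of these 13, 7 rose, beside 4.52% of all genes tested, and 6 fell, beside 4.59%. Adjusted p-values below are Benjamini-Hochberg over all genes tested, from limma-trend with the block and the GC correction, and none of these genes passed with group alone (adjusted p 0.9997). When replicate number 1 or 2 was left out of both groups the fit with the block and the GC correction passed 1 or 0 of the 61. Some of these genes had been seen to change in these libraries when the lists were made.

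Of 14 shared targets tested 4 rose and 1 fell. The median difference was 0.14, beside 0.00026 over all genes tested. LOX, lysyl oxidase, which cross-links collagen, rose: it was at 66.9, 63.2 and 56.7 FPKM in SCARNA13 ASO and 35.6, 35.3 and 31.7 FPKM in Control ASO, a difference of 0.83 ± 0.055 (SE) with adjusted p = 0.0241. With SCARNA13 ASO higher, the groups did not overlap for 4 of the 14, beside 4% of all genes tested. These were LOX, IGFBP3, DDIT4 and NDRG1. With SCARNA13 ASO lower the count was 0, beside 4.44%. Also among the shared targets, IGFBP3 (0.53, adjusted p = 0.038), PLOD2 (0.56, adjusted p = 0.0477) and STC2 (0.52, adjusted p = 0.0365) rose. They encode an insulin-like growth factor carrier, a collagen lysyl hydroxylase and a secreted glycoprotein. ANGPTL4, an inhibitor of lipoprotein lipase, fell: it was at 11.8, 11.8 and 47.9 FPKM in SCARNA13 ASO and 26.6, 28.5 and 127.7 FPKM in Control ASO, a difference of -1.19 ± 0.057 (SE) with adjusted p = 0.0241. DDIT4 (0.60, adjusted p = 0.0527) and NDRG1 (0.36, adjusted p = 0.065) did not pass, though their groups did not overlap, and PFKFB3 (-0.28, adjusted p = 0.0591) passed only in the fit without replicate 3.

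Of 7 HIF-2-preferring targets tested 2 rose and 0 fell, with a median difference of 0.10. LOXL2, a lysyl oxidase relative, rose and was at 100.4 ± 24.1 FPKM in SCARNA13 ASO and 77.7 ± 17.3 FPKM in Control ASO (SD, n = 3 each), a difference of 0.43 with adjusted p = 0.0428. CCND1, which encodes cyclin D1, was -0.15 and did not pass (adjusted p = 0.105), nor did PLIN2, a lipid droplet protein gene, at -0.29 (adjusted p = 0.0794). The groups of CCND1 and PLIN2 did not overlap, with SCARNA13 ASO lower, beside 4.44% of all genes tested, while those of LOXL2 overlapped. With SCARNA13 ASO higher the count of genes without overlap was 0 of 7, beside 4%. EPO, the classic HIF-2 target, was at no more than 0.29 FPKM in any library.

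Of 14 HIF-1-preferring targets tested 0 rose and 1 fell, with a median difference of -0.16. LDHA, which makes lactate from pyruvate, was at 87.6 ± 11.3 FPKM in SCARNA13 ASO and 110.5 ± 20.1 FPKM in Control ASO (SD, n = 3 each), a difference of -0.33 with adjusted p = 0.0394. Within all 3 replicate numbers 11 of the 14 were lower in SCARNA13 ASO and 2 were higher, beside 29.6% and 23.9% of all genes tested. The same counts, lower and higher, were 5 and 6 of 14 shared targets and 2 and 3 of 7 HIF-2-preferring targets. They were 4 and 4 of 19 degradation, stability and coactivation genes and 1 and 1 of 7 in the bHLH-PAS list. Among the HIF-1-preferring targets the groups did not overlap for 1 higher, HK2, and for 1 lower, beside 4% and 4.44% of all genes tested. Neither passed. HK2, which starts glycolysis and whose groups did not overlap, was 0.25 (adjusted p = 0.0747), MXI1, a MYC antagonist, 0.26 (adjusted p = 0.18) and ANKRD37 -0.56 (adjusted p = 0.126), and none of them passed. CA9, a carbonic anhydrase widely used as a hypoxia marker, was at no more than 0.14 FPKM.

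Of 19 genes of HIF degradation, stability and coactivation tested 1 rose and 0 fell, with a median difference of 0.00047. COMMD1, a regulator of HIF-1 alpha stability, was at 7.79, 8.81 and 9.25 FPKM in SCARNA13 ASO and 5.24, 4.96 and 6.68 FPKM in Control ASO. The groups did not overlap, and the difference was 0.60 ± 0.089 (SE) with adjusted p = 0.0404. OS9, reported to bind hydroxylases and HIF-1 alpha, was 0.32 (adjusted p = 0.068), and EP300, a coactivator, was -0.08 (adjusted p = 0.43). The groups of neither overlapped. In this list that held for 2 of 19 genes higher in SCARNA13 ASO, beside 4% of all genes tested, and for 1 lower, beside 4.44%. The chaperone genes HSP90AA1 (-0.17, adjusted p = 0.352) and HSP90AB1 (-0.23, adjusted p = 0.0721) passed only in the fit without replicate 3. Of 7 genes tested from the list of other bHLH-PAS genes 0 rose and 0 fell, with a median of 0.03. PER1, a clock gene in that list but not a bHLH-PAS factor, was -0.35 (adjusted p = 0.0507) and passed only without replicate 3. ARNTL2 was 0.20 (adjusted p = 0.215), NPAS1 0.22 (adjusted p = 0.26) and NPAS2 -0.07 (adjusted p = 0.648).

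**Figure D5:**
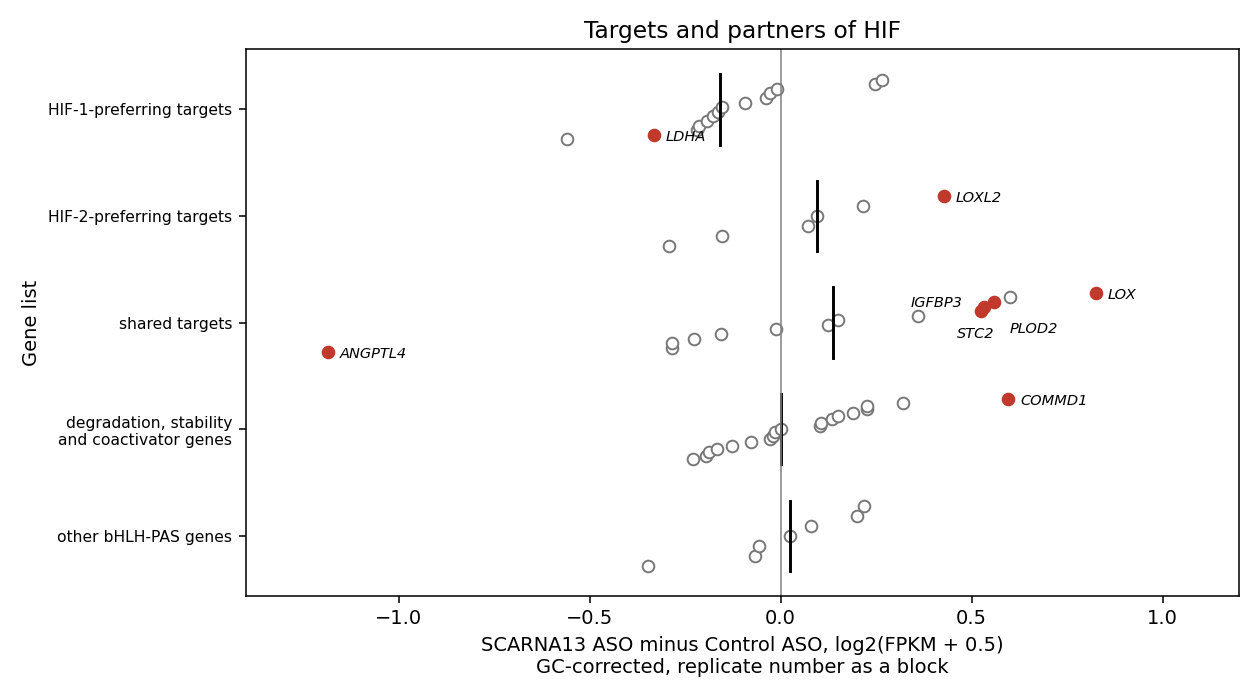
Difference of the tested genes of the 5 lists (1 HIF-2-preferring target is not drawn but counts in its median), SCARNA13 ASO minus Control ASO in log2(FPKM + 0.5) with the GC correction and the replicate block; filled red points passed an adjusted p of 0.05, open points did not, and black bars are list medians. LOX at 0.83 is the highest and ANGPTL4 at -1.19 the lowest, with medians from -0.16 for the HIF-1-preferring targets to 0.14 for the shared targets.

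Among the 5 tested genes whose log2(FPKM + 0.5) followed EPAS1 most closely over the 6 libraries were LOX (Pearson r = 0.996), CCDC80 (0.989), SERPINE2 (0.988) and PLAT (0.987). These correlations are a description over libraries that share groups and replicate numbers. SERPINE2, a protease inhibitor gene, was at 31.7, 30.8 and 31.0 FPKM in SCARNA13 ASO and 21.6, 21.1 and 18.0 FPKM in Control ASO. The groups of these 4 did not overlap, beside 8.44% of genes tested. Choosing them by likeness to EPAS1 made this nearly certain, so nothing is read from it. Among the members the correlation with EPAS1 ran from 0.55 for ARNT2 to -0.93 for HIF1AN, with HIF1A at 0.39.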

How the data were processed

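Per the labels' protocols, Trizol RNA was used and libraries were prepared with Illumina's TruSeq RNA kit. The authors deposited 1 FPKM value per gene for each library. Bowtie2 2.0.6 and TopHat2 2.0.9 with hg19 are named in the submitters' processing notes. Which tool counted reads, and how values were normalized, is not given in the sources used here. Of 58039 gene identifiers found in GENCODE 29 (GRCh38), 97.6% had the same position there, so coordinates are GRCh38. Multiplying FPKM by gene length gave whole multiples of a step in each library for 100% of values (tolerance 0.01 reads), which gave the reads. The step implies library sizes of 0.633 to 1.24 times the total reads. Limits for 0 reads cover counting error only.

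The main test was limma-trend 3.58.1 (R 4.3.3) on log2(FPKM + 0.5), which understates the change of low genes. It covered the 10120 genes whose mean reached 1 FPKM, used group as the only term, and called a two-sided Benjamini-Hochberg adjusted p under 0.05. Alternatives were the replicate number as a block, alone or with a loess correction (span 0.5) for GC content of the longest transcript (10104 genes), other scalings, limma-voom on recovered reads, and leaving out libraries. Same-numbered libraries deviated together from their group means (correlations 0.835, 0.785 and 0.915), so the numbers, which come from the titles, were taken as pairs. Replicate 1 of either group correlated with replicate 2 of the other at 0.814 and 0.805, so the check ties only replicate 3, and the pairing of 1 with 1 and 2 with 2 rests on the titles. Only limma-trend with and without the replicate block was tested on simulated data. The GC correction behind the adjusted p-values printed, limma-voom and the fits that leave out libraries were not. Named genes are all members, the 4 genes of each list with the smallest p without a block, those passing in a fit printed, the 5 most like EPAS1 and overlapping genes. Of the genes this rule names, 2 are counted but not reported here. The members and lists were chosen with earlier results of these data known.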

Additional observations from a re-analysis of the deposited data

How the results depend on the processing

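The count of genes passing was 0 with group alone and with the replicate block. It was 526 with the replicate block and GC correction, 922 without replicate 3 of both groups, and 629 with the block added to that. The members passing numbered 1 (EPAS1) in each of these 3 fits, and the pathway genes 9, 13 and 12. Nothing is read from the member counts in this section, since the contrast chose the members. Added after the data were seen, the GC-corrected block fit without replicate 1 passed 14 genes and 1 pathway gene. Without replicate 2 it passed 0 genes, and without replicate 3 it passed 763 genes, 1 member and 12 pathway genes. Without the variance trend, or without the filter on low values, it passed 0. The cause was not tested. Leaving out single libraries kept 0 calls with group alone. Over its 22 alternatives the EPAS1 difference stayed between 0.96 and 1.25. HIF1AN stayed between -0.21 and -0.07. HIF1A, EGLN1, EGLN2 and VHL each changed sign in 3 alternatives, and ARNT2 in 1, without Control ASO replicate 3. EGLN3 and HIF3A were limited by depth.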
